A study of Homo sapiens with 6 samples.

Results

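The first of 2 hairpins against METTL3, shMETTL3-1, was compared with a luciferase control hairpin, shLuc, in LX2 cells, an immortalised line of human hepatic stellate cells. The comparison used 4 of the 6 RNA-seq libraries of the series, 2 per group, and the other 2 carried a second hairpin, shMETTL3-2. Per the labels, all 3 groups had the same medium, high-glucose DMEM plus 10% serum, and carried their hairpin in the lentiviral vector pLKO.1, packaged in HEK293T cells. Each was exposed to virus for 10 h with polybrene at 1 μg/ml and selected with puromycin at 1 μg/ml, so the shLuc libraries carry the vector and the selection as well. A hairpin lowers a transcript without deleting the gene, and only 1 cell line was used.

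Genes entered the comparison by their mean over the 4 libraries. Of 12654 genes listed, 12331 had a mean score of 50 or more and were tested, and 323 were left out. BEX5, with a mean of 50, was just inside that limit, and RGS5, with 49.8, was just outside it. A further 177 of the tested genes were set apart, 161 because a value was under 10 in some library and 16 because a value stood at the maximum of its column, which left 12154.

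The deposited values are named counts, but every column has the same median of 552 and the same maximum of 72566, and sorted columns hold the same value at 87.3% of ranks. Each value is therefore called a score here. A score is close to a rank within its library. Depth is unknown, a shift shared by all genes would be invisible, and the highest scores move in steps and can tie between replicates. Per gene, replicates differed by a median of 0.097 on the log2 scale under shLuc and 0.076 under shMETTL3-1, and libraries of the 2 groups differed by 0.351 to 0.362. No label states that the 2 libraries of a group are separate cultures. The p-values reflect the spread between libraries, which may be technical.

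METTL3 carries the catalytic site of the methyltransferase that places N6-methyladenosine (m6A) on messenger RNA, and METTL14 is its partner. The mark is read by YTH domain proteins and others, which affect the decay and the translation of the RNA that carries it. Hepatic stellate cells are the vitamin A storing cells of the liver. After injury they become myofibroblasts, which build contractile stress fibres, secrete collagen and divide. In this state the serum response factor SRF and its cofactors drive contractile genes, and the Hippo pathway effectors YAP and TAZ act through TEAD factors on matrix and growth genes. The series title asks how loss of METTL3 bears on stellate cell activation.

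The hairpin's target was lower. METTL3 (ENSG00000165819, chromosome 14, 21966277 to 21971972 in hg19) scored 536 and 552 under shLuc and 274 and 256 under shMETTL3-1, and 148 and 132 under shMETTL3-2. Both shMETTL3-1 libraries lay below both control libraries and above both libraries of the second hairpin. The fall was 2.05-fold (log2 -1.04, SE 0.10, limma adjusted p = 0.000104). The second hairpin stood lower still (shMETTL3-2 minus shMETTL3-1, log2 -0.92, adjusted p = 0.000158). Of the other writer genes, 6 were called higher and none besides METTL3 lower, among 12 tested. KIAA1429, a scaffold of the complex also known as VIRMA, scored 609 and 630 under shLuc and 1052 and 1006 under shMETTL3-1 (log2 0.73, adjusted p = 7.91e-05). METTL14 rose by a log2 of 0.42 (adjusted p = 0.0333), a call lost without shLuc replicate 2, without either shMETTL3-1 library and without trend and robust moderation, while WTAP lay at 0.06 (adjusted p = 0.369). Of 12 m6A readers and erasers 2 rose and 2 fell. ALKBH5, which removes the mark, rose by 0.41 and the reader YTHDF1 fell by 0.46 on the log2 scale.

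In all, 7261 genes (58.9% of those tested) were called at a Benjamini-Hochberg adjusted p under 0.05, 3756 higher (30.5%) and 3505 lower (28.4%). The median size of a called change was 0.571 on the log2 scale, and a change of at least 1 in size was seen for 681 genes called higher (5.52%) and 803 called lower (6.51%). Counts within a gene group are to be read against these shares. Under shMETTL3-2, 30.4% of all tested genes were called higher and 29.2% lower, and group counts under that hairpin are to be read against those. Genes not set apart that moved by 4-fold or more numbered 86 higher and 108 lower. Both shMETTL3-1 libraries lay above both controls for 41.6% of tested genes and below both for 38.0%. With 2 libraries per group an exact permutation test of a gene cannot go below a two-sided p of 0.333, so each call rests on the spread that limma shares across genes.

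**Figure D1:**
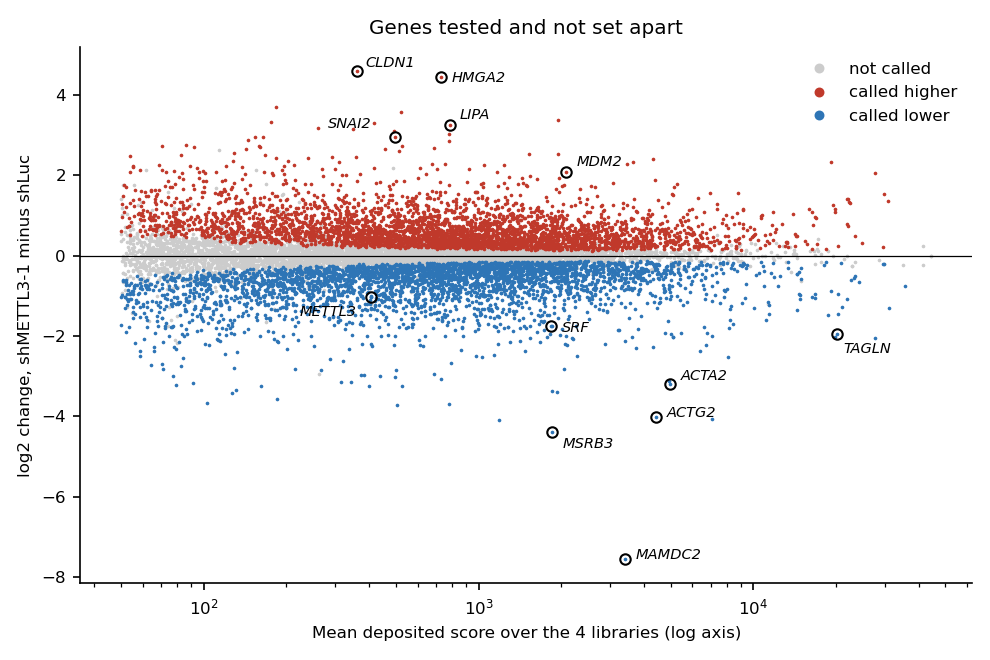
Log2 change of each tested gene not set apart (shMETTL3-1 minus shLuc, y axis) against its mean deposited score over the 4 libraries (log x axis). Red points were called higher, blue points lower and grey points neither; ringed genes include MAMDC2, the lowest at -7.55, and CLDN1, the highest at 4.58.

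The largest fall among genes not set apart was that of MAMDC2, a secreted matrix-associated protein (chromosome 9, 72658497 to 72841886). It scored 6239 and 7376 under shLuc and 31 and 40 under shMETTL3-1. The shMETTL3-1 libraries were near the bottom of the score range, and the shMETTL3-2 libraries, at 916 and 1048, lay between the groups. The fall was 187-fold (log2 -7.55, SE 0.14, adjusted p = 4.73e-07). MSRB3, a methionine sulfoxide reductase, fell by 4.38 on the log2 scale under shMETTL3-1 and by 0.75 under shMETTL3-2, a difference of 3.63 (adjusted p = 5.71e-07). NPPB, the precursor of a natriuretic peptide, scored 14067 and 12583 under shLuc and 822 and 768 under shMETTL3-1. KLHL8, STX11, ITIH3 and PITPNM3 fell by 3.41 to 3.72 on the log2 scale.

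CLDN1, a tight junction protein, rose most. It scored 28 in both shLuc libraries, 654 and 737 under shMETTL3-1, and 946 and 986 under shMETTL3-2, so no library of either hairpin came near the controls. HMGA2, a chromatin architectural protein of fetal tissue, went from 62 and 65 to 1425 and 1362 (log2 4.43, SE 0.08, adjusted p = 4.31e-07). SLC4A4, a sodium bicarbonate cotransporter, went from 90 and 70 to 973 and 947, and its log2 change of 3.58 compares with 0.74 with the second hairpin (difference -2.84, adjusted p = 5.23e-06). LIPA, the lysosomal acid lipase, rose by 3.25, the caveolar protein CAV2 by 3.37, the actin-bundling protein LCP1 by 3.70 and EGLN1, the main prolyl hydroxylase that marks HIF for decay, by 2.85. Further rises of 2.74 to 2.96 were those of the transcriptional repressor SNAI2, the adhesion glycoprotein EMB, the GTPase activator DOCK4, the integrin subunit ITGA2 and the collagen chain COL6A3.

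Genes at the ends of the score range give no measured fold. TNC, the matrix glycoprotein tenascin-C, stood at the maximum of 72566 in both shLuc libraries and at 3266 and 3311 under shMETTL3-1, the widest gap among the 16 genes at the maximum, and its change is truncated. FLNA, an actin-binding protein, went from the maximum to 31962 and 44490. In the other direction ACTG1, cytoplasmic gamma actin, went from 19484 in both shLuc libraries to the maximum in both shMETTL3-1 libraries, as did the DNA repair kinase PRKDC from 17914 and 19484. FN1, fibronectin, COL1A1 and 3 other genes were at the maximum in all 4 libraries, so no change could be seen in them.

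At the low end, 26 genes had both shLuc libraries under 10 and both shMETTL3-1 libraries at 50 or more, and 15 genes had the reverse. PTGS2, the inducible cyclooxygenase COX-2, scored 5 and 6 under shLuc, 272 and 190 under shMETTL3-1, and 4 and 5 under shMETTL3-2. Only the first hairpin's libraries stood above the floor for this gene. It entered the comparison through those libraries, and no test of it is read. HGF, hepatocyte growth factor, was listed at 0 in both shLuc libraries and at 206 and 268 under shMETTL3-1. MUSK, a receptor kinase of muscle, fell from 220 and 243 to 8 and 9, and stood at 228 and 285 under shMETTL3-2. SLCO1A2, an organic anion transporter, was listed at 261 and 176 under shLuc, at 0 in both shMETTL3-1 libraries, and at 238 and 276 under shMETTL3-2. The median larger replicate difference was 7.24 on the log2 scale among tested genes with a low value and 0.14 among the rest. The mean of 50 or more required for testing favours low values with a high replicate beside them. That gap is therefore partly built in and does not measure how steady low scores are.

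Contractile genes of the myofibroblast fell as a group. Of 27 tested, 19 were called lower, 1 higher and 7 neither, against 28.4% lower over all genes tested. The median log2 change was -0.74, against 0.015 over all genes tested. Under shMETTL3-2, 22 were lower and 4 higher, with a median of -0.6 (29.2% of all tested genes were lower and 30.4% higher). ACTA2, alpha smooth muscle actin, by which stellate cell activation is usually judged (chromosome 10, 90694831 to 90712530), scored 8266 and 9713 under shLuc and 917 and 1040 under shMETTL3-1. The shMETTL3-1 scores lay far below both controls and also below both libraries of the second hairpin, 1394 and 1694. The fall was 9.17-fold (SE 0.12 on the log2 scale, adjusted p = 4.5e-06). In bulk RNA fewer cells that express a gene and less of its RNA per cell cannot be told apart, here or in what follows.

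ACTG2, smooth muscle gamma actin (chromosome 2, 74119441 to 74146802), fell 16.2-fold, from 8286 and 8429 to 548 and 484. Of its actin partners, SYNPO2 fell by 4.10 and LMOD1 fell by 3.69 on the log2 scale. TAGLN, the actin-binding protein transgelin, fell by 1.95, CNN1, smooth muscle calponin, by 1.90, and MYL9, the regulatory myosin light chain, by 1.04. MYH10, a nonmuscle myosin, fell by 0.50 and TPM4, a tropomyosin, by 0.53, while TPM1 lay at 0.16 (adjusted p = 0.114), TPM3 at -0.13 (adjusted p = 0.102) and CNN3 at 0.07 (adjusted p = 0.258). CNN2, the calponin of nonmuscle cells, was the member of this list that rose, from 3848 and 3986 to 6974 in both libraries (log2 0.83, adjusted p = 1.09e-05).

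SRF, the transcription factor that binds the CArG boxes of contractile genes (chromosome 6, 43139037 to 43149243), fell as well, and only with this hairpin. It scored 2796 and 2858 under shLuc, 844 and 846 under shMETTL3-1, and 2870 and 2796 under shMETTL3-2. The shMETTL3-1 libraries stood alone, and those of shMETTL3-2 were level with the controls. The fall was 3.34-fold (log2 -1.74, SE 0.05, adjusted p = 9.17e-07), the log2 change under shMETTL3-2 was 0.00 (adjusted p = 0.964), and SRF stood 1.74 higher under the second hairpin than the first (adjusted p = 7.03e-07). MYOCD, the muscle-restricted SRF cofactor myocardin, fell with both hairpins, by 0.96 under shMETTL3-1 and 1.98 under shMETTL3-2. Of the actin-sensing cofactors, MKL1 (MRTF-A) lay at -0.03 (adjusted p = 0.773) and MKL2 (MRTF-B) rose by 0.72. Among regulators of actin fibres, RND3, a small GTPase, fell by 1.57 and DIAPH3, a formin, by 1.08, whereas the kinases ROCK1 and ROCK2 were not called (log2 -0.25 and -0.35). In all 4 of the 18 genes of SRF and actin regulation rose and 6 fell.

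**Figure D2:**
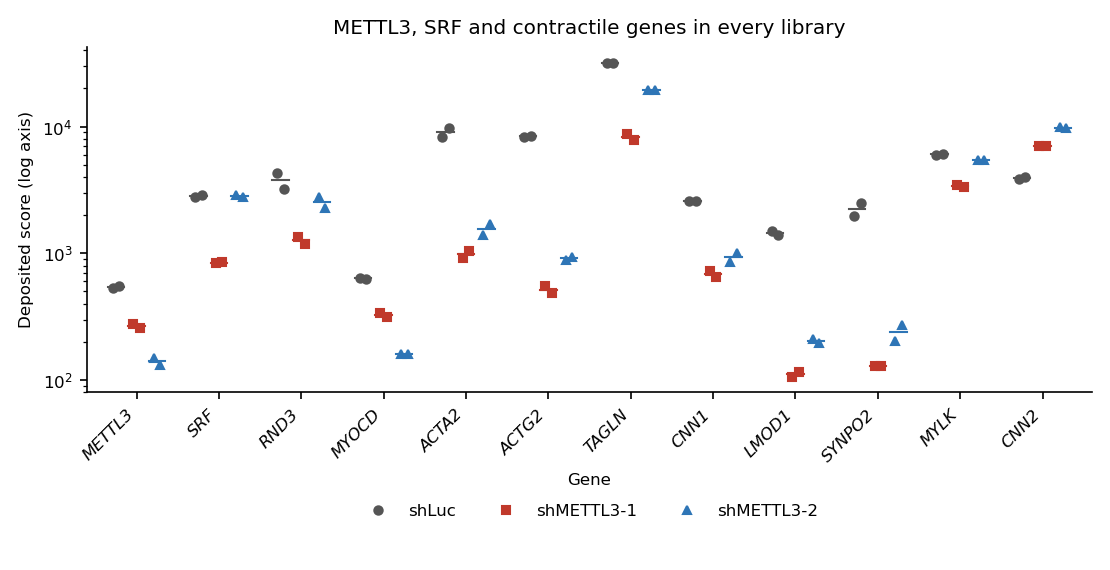
Deposited score (log y axis) of METTL3, 3 regulators and 8 contractile genes in each of the 6 libraries (circles shLuc, squares shMETTL3-1, triangles shMETTL3-2), with a bar at each mean of 2 libraries. SRF is low in the shMETTL3-1 libraries (844 and 846), and its shMETTL3-2 libraries are level with the shLuc libraries. ACTA2 and ACTG2 are low with both hairpins and CNN2 is high with both.

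Promoters that carry CArG boxes are shown because SRF, which binds them, fell. RefSeq promoters (GRCh38.p14, from 250 bases before to 50 after the start) were found for 9930 of the tested genes (80.5%) and for 24 of the 27 contractile genes. A CArG box, searched on both strands, was present in 1.05% of all tested promoters, in 3 of 16 promoters of contractile genes called lower (18.8%) and in 1 of the 8 others (12.5%), which is the promoter of CNN2. These windows are short, and boxes farther from the start were not searched. Only the strict form, CC and GG around a run of A or T, was matched, so looser boxes within the window were not counted. Of the SRF and actin regulators, SRF itself, RND3 and ROCK2 hold boxes in this window. SRF and RND3 fell, and ROCK2 was not called (log2 -0.35). In the stretches printed here, 5′ to 3′ on the strand of the gene, capitals mark the CArG box.
ACTG2, chr2:73892883-73892962, plus strand: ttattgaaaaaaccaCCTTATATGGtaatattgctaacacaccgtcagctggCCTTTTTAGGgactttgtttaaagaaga
SRF, chr6:43171209-43171287, plus strand: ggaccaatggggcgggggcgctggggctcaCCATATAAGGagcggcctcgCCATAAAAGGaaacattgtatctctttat
MYLK, chr3:123620613-123620672, minus strand: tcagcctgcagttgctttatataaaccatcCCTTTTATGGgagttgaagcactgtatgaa
TPM4, chr19:16067335-16067394, plus strand: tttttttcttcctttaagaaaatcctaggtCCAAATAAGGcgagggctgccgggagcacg
RND3, chr2:150487738-150487797, minus strand: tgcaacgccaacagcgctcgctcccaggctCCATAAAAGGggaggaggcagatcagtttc
CNN2, chr19:1026489-1026548, plus strand: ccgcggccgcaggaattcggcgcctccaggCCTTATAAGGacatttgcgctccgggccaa
ACTG2 and SRF each hold 2 boxes, and genes with a box include ACTG2, which fell, and CNN2, which rose. MYLK, myosin light chain kinase, scored 5936 and 6124 under shLuc and 3468 and 3318 under shMETTL3-1 (log2 -0.83, adjusted p = 1.18e-05).

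Collagen chains were split. Of 20 tested, 9 rose, 7 fell and 4 were not called, with a median of -0.02. COL8A1, a short-chain collagen of vessel walls, scored 12148 and 15442 under shLuc and 2428 and 2367 under shMETTL3-1, a 5.71-fold fall. Of the fibrillar chains, COL1A2 fell by 1.18 on the log2 scale (5342 and 7244 to 2656 and 2852), COL3A1 lay at -0.04 (adjusted p = 0.883), and COL5A1 rose from 12136 in both libraries to 31936 in both. The fold of COL5A1 is a step between tied scores. COL6A3, a chain of collagen VI, rose from 138 and 136 to 934 and 904, and COL4A5, a chain of collagen IV, rose by 1.65. COL15A1, which encodes collagen XV, fell by 1.90.

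Enzymes that modify and crosslink collagen were lower in 12 of 22 and higher in 7, and under shMETTL3-2 lower in 13 and higher in 5. LOX, the lysyl oxidase that starts crosslinking, scored 12606 in both shLuc libraries and 5770 and 6354 under shMETTL3-1 (log2 -1.06, adjusted p = 9.98e-06). It was not called under shMETTL3-2 (log2 -0.15, adjusted p = 0.0627), where it stood 0.91 above the first hairpin (adjusted p = 1.54e-05). Its relative LOXL2 went the other way, from 12616 to 31996 in both libraries, again a step. The lysyl hydroxylase PLOD2 fell by 0.95 and the collagen chaperone SERPINH1 by 0.24.

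Of 41 matrix glycoproteins and proteoglycans 19 fell, 10 rose and 12 were not called, with a median of -0.21. Counts for this list under shMETTL3-2 were 24 lower and 7 higher. The cell surface proteoglycan SDC4 fell from 6990 and 7251 to 1486 and 1480. HSPG2, the basement membrane proteoglycan perlecan, fell by 1.30 and FBN2, a fibrillin, by 1.59. The rises included LAMA4, a laminin chain of vessel basement membrane, by 2.04, LTBP1, which tethers latent TGF-beta, by 1.23, and SPARC, a collagen-binding glycoprotein, by 1.17. DCN, decorin, fell by 0.51, a call lost without shLuc replicate 1 or shMETTL3-1 replicate 2, and LUM, lumican, lay at -0.12 (adjusted p = 0.722).

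Matrix proteases and their inhibitors were mixed: of 33 tested, 14 rose and 11 fell. MMP14, the membrane-anchored protease that activates MMP2, scored 1940 and 1816 under shLuc and 6637 and 7084 under shMETTL3-1 (log2 1.87, adjusted p = 1.61e-06). MMP1, MMP9 and MMP2 rose by 2.36, 2.14 and 0.77. PLAU, urokinase, rose 3.25-fold, whereas its receptor PLAUR fell by 0.75. TIMP1, the inhibitor most often measured in fibrosis, scored 2276 and 2226 under shLuc, 703 and 630 under shMETTL3-1, and 2480 and 2324 under shMETTL3-2. It was low with the first hairpin and level with the controls with the second (difference 1.85, adjusted p = 1.63e-06). TIMP3 fell by 1.81 and TIMP2 rose by 0.65.

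Adhesion genes were more often lower: of 42 integrin and focal adhesion genes 21 fell, 12 rose and 9 were not called, with a median of -0.19. They were also more often lower under shMETTL3-2, where 22 fell and 9 rose. ITGB1, the beta subunit shared by most collagen and fibronectin receptors, went from 31952 in both shLuc libraries to 7693 and 7910, a 4.10-fold fall. ITGB3, partner of the alpha v subunit, went from 3296 and 3465 to 318 and 340. ITGAV itself rose from 3438 and 3590 to 9952 and 10768 (log2 1.56), and fell under shMETTL3-2 (-0.41), so the hairpins differed by -1.97 (adjusted p = 8.81e-07). The alpha 2 collagen receptor subunit ITGA2 rose from 42 and 39 to 284 and 268. Of the linkers to actin, VASP fell by 1.10 and the integrin-linked kinase ILK by 0.50, ZYX lay at -0.03 (adjusted p = 0.546) and PXN, paxillin, rose by 1.15. Of 26 junction genes 10 rose and 10 fell; beside CLDN1, the mesenchymal cadherin CDH2 rose by 0.88. Of 7 caveolar genes 3 rose and 2 fell, and CAV1, the main coat protein, rose by 0.52 beside the larger rise of CAV2.

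YAP and TAZ targets were lower in 20 of 34 and higher in 10, with a median of -0.62. Under shMETTL3-2, 18 were lower and 5 higher, with a median of -0.21. CTGF, a matricellular protein also named CCN2 (chromosome 6, 132269316 to 132272513), scored 10747 and 9709 under shLuc and 2917 and 3068 under shMETTL3-1, a 3.41-fold fall (adjusted p = 1.88e-06). ANKRD1, a cofactor of stressed muscle and a standard YAP reporter, scored 8681 and 7232 under shLuc, 2112 and 1999 under shMETTL3-1, and 8981 and 7506 under shMETTL3-2. The second hairpin's libraries overlapped the controls for ANKRD1, and the hairpins differed by 2.00 (adjusted p = 1.54e-05). EDN1, endothelin-1, fell by 2.00, CYR61 (CCN1) by 0.97, the matricellular THBS1 by 1.28 and the cytokine TGFB2 by 1.25. The members that rose were led by PTPN14 (1.30), TGFBR2 (1.20) and LATS2 (1.11), and BIRC5 was not called (-0.01, adjusted p = 0.944).

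Of the 32 Hippo components 11 rose and 12 fell. LATS2, the kinase that phosphorylates YAP and a YAP target itself, went from 1218 and 1321 to 2668 and 2815, and NF2, the upstream scaffold merlin, rose by 0.71. YAP1 scored 3363 and 3644 under shLuc and 4196 and 4448 under shMETTL3-1 (log2 0.30, adjusted p = 0.00758). Its call was lost without shLuc replicate 1 or without shMETTL3-1 replicate 2. WWTR1, which encodes TAZ, lay at 0.15 (adjusted p = 0.176). TEAD1 fell by 0.87 and TEAD4 by 0.78, as did the cofactor VGLL3 by 1.31.

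The letters GGAATG, a core of the TEAD site, were searched on both strands of the same promoter windows and were present in 10.7% of all tested promoters. They were present in 5 of 16 promoters of YAP targets called lower (31.2%). Of the 14 other targets, 11 had a promoter here and 3 of these held the letters (27.3%), and no contrast between the shares is drawn. The stretches of CTGF and ANKRD1 are shown because both fell under shMETTL3-1 and differed between hairpins, and capitals mark GGAATG.
CTGF, chr6:131951453-131951552, minus strand: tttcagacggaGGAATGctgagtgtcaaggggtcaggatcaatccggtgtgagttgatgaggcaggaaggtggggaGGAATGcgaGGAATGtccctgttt
ANKRD1, chr10:90921198-90921317, minus strand: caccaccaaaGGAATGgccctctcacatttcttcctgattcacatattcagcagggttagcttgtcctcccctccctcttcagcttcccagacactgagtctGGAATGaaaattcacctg
CTGF holds 3 matches in this stretch and ANKRD1 holds 2.

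TGF-beta family genes were mixed by role. Of 42 tested, 14 rose and 16 fell. Among ligands, TGFB1, the main profibrotic cytokine, rose from 916 and 863 to 1748 and 1803, TGFB2 fell, and BMP4 and the activin chain INHBA fell by 2.20 and 1.51. Of the receptors, TGFBR2 rose from 2750 and 2886 to 6344 and 6646 and TGFBR1 fell by 0.67. SMAD2 fell by 0.74, while SMAD3 and SMAD4 were not called (-0.12 and -0.07). ID1 and ID3, immediate targets of BMP signalling, rose by 0.90 and 1.13, and the antagonist FST, follistatin, fell by 2.22. PDGFRB, the receptor through which PDGF drives stellate cell growth, fell from 1808 and 1718 to 680 and 656, and its ligand PDGFB rose by 1.37. Growth factors and their receptors as a list went both ways, 17 of 39 higher and 17 lower, with FGF2 lower by 1.56 and the insulin-like growth factor receptor IGF1R higher by 0.68. Of 32 MAPK feedback and early response genes 13 rose and 11 fell. The ERK phosphatase DUSP6 rose by 1.14, and the early response factor EGR1 fell by 1.06.

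Transcription factors of mesenchymal cells were more often higher, 12 of 21, with 6 lower and a median of 0.33. SNAI2 went from 112 in both shLuc libraries to 828 and 934, and RUNX2, the factor of bone-forming cells, from 91 and 131 to 568 and 646. RUNX1 rose by 1.39 and SOX9 by 1.22. ZEB2 was the large fall, from 1918 and 1946 to 366 and 333, against 1556 and 1620 under shMETTL3-2 (difference 2.18, adjusted p = 8.91e-07). TWIST1 was not called (0.14, adjusted p = 0.736). The counts in this small list depended on the libraries: without shMETTL3-1 replicate 2, 7 were called higher and 3 lower.

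Mitotic genes fell together. Of 80 tested, 63 were lower, 2 higher and 15 not called, with a median log2 change of -0.58. The falls were of modest size and shared across roles. CKAP2L, a spindle protein, had the widest, from 1936 and 1566 to 326 and 282. UBE2S, the ubiquitin chain-extending enzyme of the anaphase complex, fell 3.08-fold, TPX2, which activates Aurora A at the spindle, 2.27-fold, and CDC20, the activator of the anaphase complex, 1.78-fold. The kinases AURKB, PLK1 and CDK1 fell by 0.96, 0.88 and 0.39 on the log2 scale, and MKI67, the proliferation marker, from 5647 in both libraries to 3894 and 3618. The 2 that rose were BUB3, a checkpoint protein, by 0.53, and FOXM1, a transcription factor of mitotic genes, by 0.19, whose call was lost without shLuc replicate 1 or shMETTL3-1 replicate 1. With shMETTL3-2, 7 were higher and 41 lower, and for 45 of the 80 the score was called higher under shMETTL3-2 than under shMETTL3-1 (31.4% of all tested genes were). Leaving out each library in turn left 54 to 65 lower.

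DNA replication genes did not follow. Of 62 tested, 28 rose, 15 fell and 19 were not called, with a median of 0.14.

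The letters TTTGAA, known from the cell cycle homology region of late cell cycle promoters, were present on either strand in 9.56% of all tested promoters and in 36 of 54 promoters of mitotic genes called lower (66.7%). In the mitotic genes not called lower the letters were present in 9 of 14 (64.3%). CCAAT was present in 37.0% of all tested promoters, in 41 of the 54 (75.9%) and in 6 of the 14 (42.9%). Stretches from 4 of the genes that fell are shown with TTTGAA in capitals.
CDC20, chr1:43358896-43358955, plus strand: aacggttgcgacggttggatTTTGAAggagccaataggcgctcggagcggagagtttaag
CDCA3, chr12:6851270-6851329, minus strand: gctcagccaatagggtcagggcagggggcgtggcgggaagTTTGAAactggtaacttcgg
CDCA8, chr1:37692463-37692522, plus strand: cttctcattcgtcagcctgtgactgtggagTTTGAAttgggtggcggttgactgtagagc
CKAP2L, chr2:112764597-112764656, minus strand: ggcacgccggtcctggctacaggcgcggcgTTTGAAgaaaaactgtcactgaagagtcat
CDCA3, which helps mitotic entry, fell by 1.32 on the log2 scale and CDCA8, borealin of the chromosomal passenger complex, by 0.89.

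Genes of the G1 phase and the DNA damage response went both ways. Of the 41 genes of the G1 and DNA damage list, 23 rose and 14 fell, with a median of 0.27 (under shMETTL3-2, 5 rose and 23 fell, against 30.4% and 29.2% of all tested genes). MDM2, a ubiquitin ligase induced in that response (chromosome 12, 69201956 to 69239214), scored 816 and 775 under shLuc, 3198 and 3540 under shMETTL3-1, and 644 and 572 under shMETTL3-2. The shMETTL3-1 libraries stood 4.23-fold above the controls (SE 0.08 on the log2 scale, adjusted p = 2.41e-06), and those of shMETTL3-2 lay below them. TP53INP1, a nuclear protein induced by stress, went from 136 and 154 to 816 and 944. CDKN1A, the CDK inhibitor p21, went from 3154 and 3042 to 5188 and 5629 (log2 0.80), and lay at 2898 and 2762 under shMETTL3-2 (difference -0.93, adjusted p = 1.24e-05).

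Further damage response genes of this list also rose: the stress sensors SESN1 and SESN2 by 1.14 and 1.57, TP53I3 by 1.41, the RNA-binding ZMAT3 by 1.37, the atypical cyclin CCNG1 by 1.31, FDXR by 1.28, the repair genes XPC and DDB2 by 1.18 and 1.00, the phosphatase PPM1D by 0.86 and BTG2 by 0.81. Death receptor genes did so too. FAS went from 56 and 58 to 311 and 306, with 36 and 26 under shMETTL3-2, and TNFRSF10B rose by 1.25 under shMETTL3-1 and fell by 1.09 under shMETTL3-2. A grouping of 26 known targets of the transcription factor p53 was made after these values were seen, and is therefore given without a test. It held 25 called higher and 1 not called (APAF1) under shMETTL3-1. Neither DNA damage nor p53 activity was measured. The calls of AEN, GADD45A, BAX and PLK3, which rose by 0.18 to 0.33, were each lost when some library was left out, PLK3 only without shMETTL3-1 replicate 2. With shMETTL3-2 the grouping held 4 higher, 16 lower and 6 not called. For 24 the score was called lower under shMETTL3-2 than under shMETTL3-1, as it was for 31.6% of all tested genes. The grouping was made from values already seen, so no contrast between its counts and the shares of all genes is drawn.

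**Figure D3:**
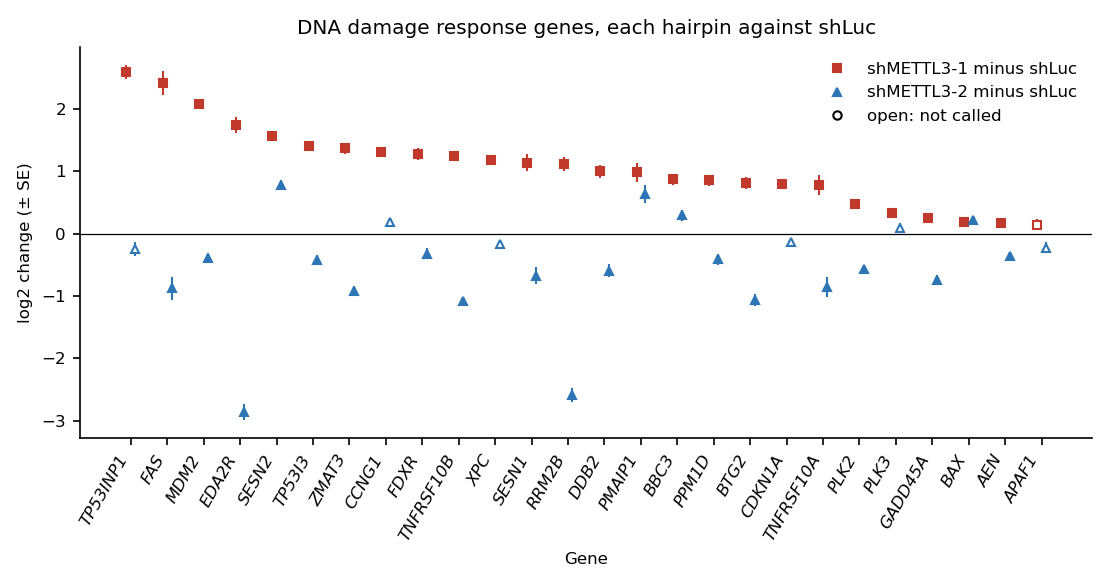
Log2 change ± SE (y axis) of 26 known p53 targets, named DNA damage response genes in the title and grouped after their values were seen. Squares are shMETTL3-1 and triangles shMETTL3-2, each against the same 2 shLuc libraries, and open symbols were not called. The squares lie above 0 for all 26, and 16 of the triangles were called lower.

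Of the remaining G1 genes, the cyclin CCNE1 fell by 1.60 and the CDK inhibitors CDKN1C, CDKN2D and CDKN2C by 1.81, 1.49 and 1.02. CDK4 fell by 0.46. CCND1 rose from 12598 and 10760 to 15424 and 14086 (log2 0.34, adjusted p = 0.0115), a call that was lost without shLuc replicate 2 or shMETTL3-1 replicate 1. Apoptosis genes were higher in 14 of 30 and lower in 7. The survival factor MCL1 rose by 1.13 and the BH3-only genes PMAIP1 and BBC3 by 0.98 and 0.87, while BCL2L2, which protects from death, fell from 1440 and 1307 to 221 and 206.

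**Figure D4:**
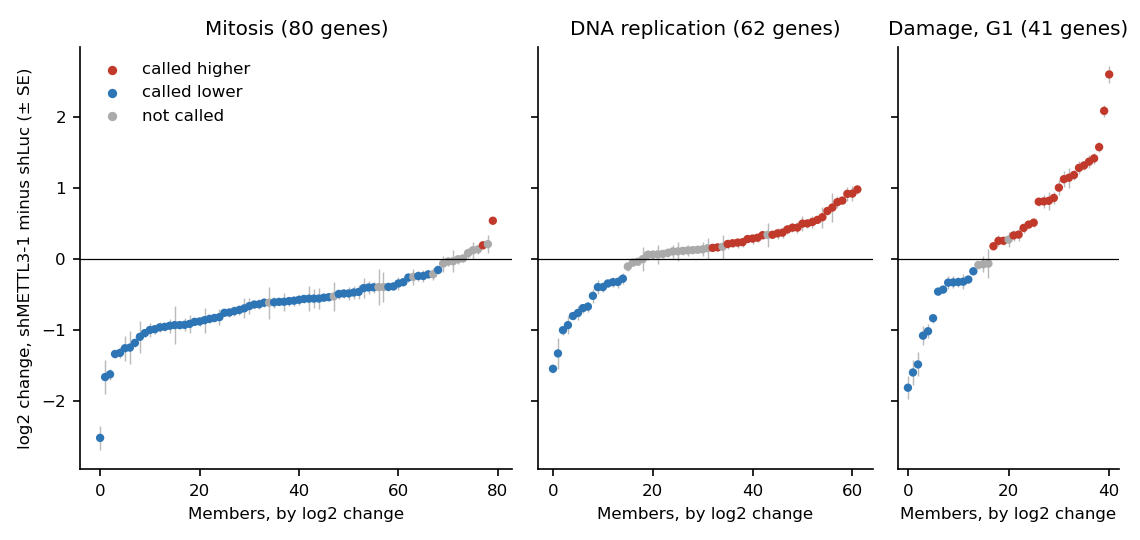
Log2 change ± SE (shMETTL3-1 minus shLuc, y axis) of every tested member of 3 lists, ordered by change (x axis), with called genes in red (higher) or blue (lower). The mitosis list lies mostly below 0 (63 of 80 lower), the replication list on both sides (28 higher, 15 lower), and the G1 and DNA damage list has long tails both ways.

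Lysosome genes rose in 33 of 56 and fell in 12, with a median of 0.32. Under shMETTL3-2 they rose in 41 and fell in 7 (30.4% and 29.2% of all tested genes). LIPA, which frees cholesterol and fatty acids from lipids taken up into lysosomes, went from 144 and 152 to 1460 and 1382. MANBA, beta-mannosidase, rose by 1.78, the peptidase TPP1 by 1.08 and the proton pump subunits ATP6V1C1 and ATP6V1G1 by 1.09 and 1.04. CTSC, the protease that activates granule proteases, was the large fall, from 10226 and 11852 to 2546 and 2198. It stood at 10774 and 12606 under shMETTL3-2, so the fall was called with the first hairpin only (difference 2.30, adjusted p = 7.99e-06). Autophagy genes rose in 17 of 37 and fell in 8. ULK1, the kinase that starts autophagy, went from 1321 and 1287 to 3027 and 3072, and ATG14 and ATG9A rose by 0.95 and 0.92. The lysosomal transcription factors TFEB and MITF fell by 0.82 and 1.14.

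Fatty acid genes were lower in 16 of 31 and higher in 5. CPT1A, which carries fatty acids into mitochondria, scored 1280 and 1077 under shLuc, 352 and 350 under shMETTL3-1, and 1160 and 1222 under shMETTL3-2. The shMETTL3-2 libraries lay among the controls (difference 1.76, adjusted p = 5.23e-06). Of 32 cholesterol genes 9 rose and 12 fell under shMETTL3-1, against 26 and 2 under shMETTL3-2 (30.4% and 29.2% of all tested genes). The efflux pump ABCA1 rose by 1.84.

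Glycolysis and hypoxia genes were split, 12 of 39 higher and 11 lower. HK2, the inducible hexokinase, went from 3528 in both libraries to 852 and 863, and NDRG1 and ADM, both known to rise in hypoxia, fell by 1.71 and 1.70. EGLN1 went from 196 and 182 to 1225 and 1518, HIF1A rose by 1.16 and PGK1 from 15424 to 44490 in both libraries. Of 32 NRF2 and glutathione genes 10 rose and 9 fell. TXNRD1, thioredoxin reductase, scored 8088 and 8272 under shLuc, 2088 and 1922 under shMETTL3-1, and 10216 and 9948 under shMETTL3-2. The stored-iron subunit FTL rose by 1.15. In the ATF4 amino acid program 16 of 42 rose and 12 fell, with the amino acid transporter SLC7A5 lower by 1.86 and the pseudokinase TRIB3 higher by 1.79. ER chaperones and unfolded protein genes were 9 higher and 11 lower of 29, and HSPA5 (BiP) lay at 0.00, tied at 19516 in all 4 libraries.

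Of 37 NF-kB and inflammation genes 17 rose and 8 fell, with a median of 0.14. Under shMETTL3-2, 25 rose and 5 fell, with a median of 0.53. The chemokines CXCL1 and CXCL12 rose by 1.92 and 1.28, and CCL2 fell by 1.48. Of 51 interferon-stimulated genes 16 rose, 11 fell and 24 were not called, with a median of 0.04, whereas 41 rose and 5 fell under shMETTL3-2. Over all tested genes 30.4% rose and 29.2% fell under shMETTL3-2. For 40 of the 51 the score was called higher under shMETTL3-2 than under shMETTL3-1 (31.4% of all tested genes were). GBP1, an interferon-induced GTPase, went from 3738 and 3462 to 546 and 470. ISG15, a ubiquitin-like modifier, lay at 0.02 (adjusted p = 0.857). In MHC class I presentation the transactivator NLRC5 fell by 1.42 and B2M by 0.67, and the trimming peptidase ERAP2 rose by 1.81.

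**Figure D5:**
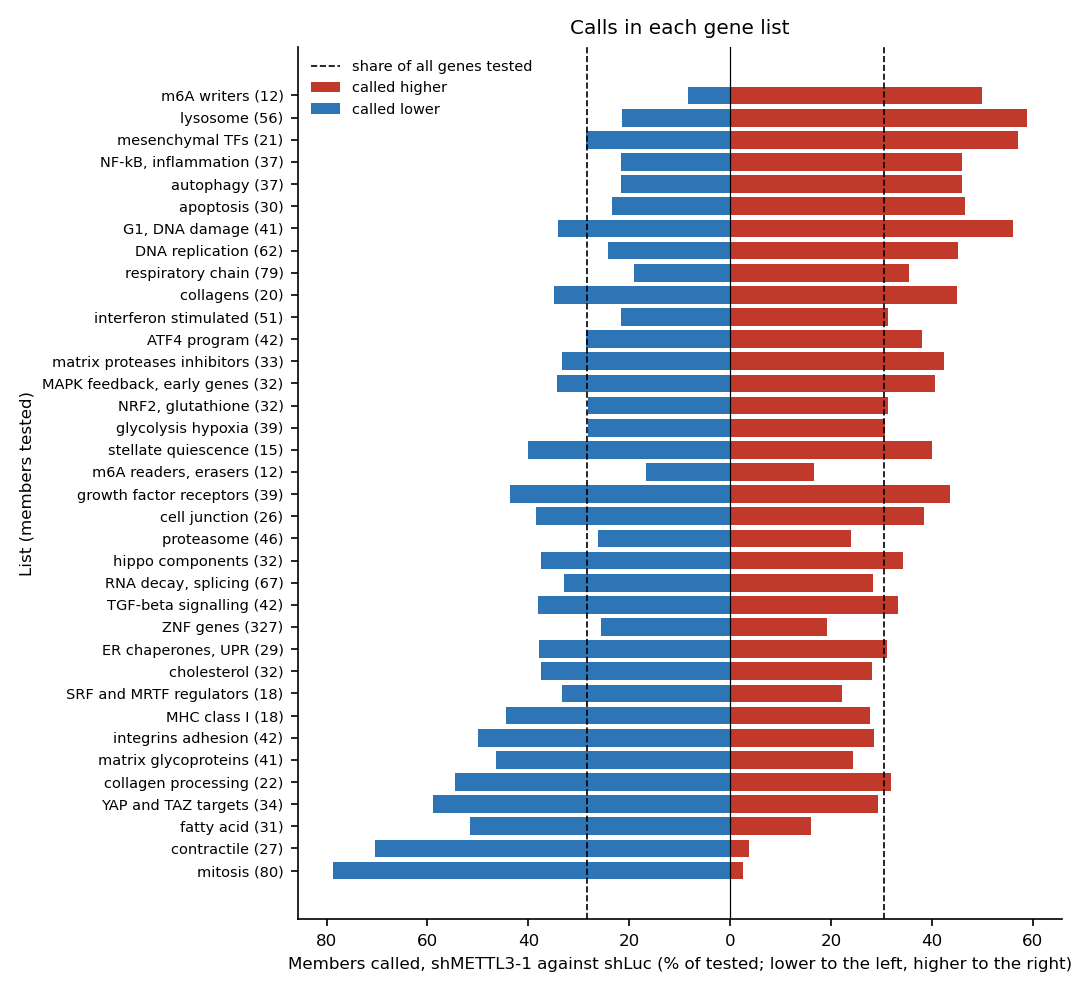
Share of tested members called higher (red, to the right) and lower (blue, to the left) in each gene list with 12 or more tested members, under shMETTL3-1 against shLuc. Dashed lines mark the shares of all tested genes, 30.5% higher and 28.4% lower; the mitosis and contractile lists reach farthest to the left and the lysosome list farthest to the right.

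Much of what the first hairpin changed differed from the second. The shared control libraries and the shared shMETTL3-1 libraries tie these contrasts to each other. Of the 7261 genes called under shMETTL3-1, 5264 (72.5%) had a called difference between the hairpins, against 63.0% of all genes tested. Of the 3756 genes called higher under shMETTL3-1, 679 were called lower under shMETTL3-2 (29.2% of all tested genes were). Of the 3505 called lower, 622 were called higher under shMETTL3-2 (30.4% of all tested genes were). Opposite calls were thus rarer among these genes than those shares. Without genes that had a value under 10 or at the maximum in any of the 6 libraries, 1294 moved in opposite directions with a called difference.

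PLAU scored 2492 and 2360 under shLuc, 7689 and 8080 under shMETTL3-1, and 405 and 366 under shMETTL3-2. TES, a focal adhesion protein, went from 180 and 190 to 1219 and 1172 under shMETTL3-1 and to 60 and 73 under shMETTL3-2. The controls lay between the hairpins for both genes. SERPINB2, a plasminogen activator inhibitor, ran the other way, from 125 and 148 down to 37 and 30 under shMETTL3-1 and up to 1988 and 2012 under shMETTL3-2. VWA9 and C1GALT1C1, a chaperone of O-glycan synthesis, followed the same pattern as SERPINB2, and RRM2B, EDA2R and PGK1 that of PLAU.

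A change of at least 1 on the log2 scale under shMETTL3-1, no call under shMETTL3-2 and a called difference was seen for 141 rises and 210 falls. TMEM2, a cell surface hyaluronidase, fell from 3586 and 3456 to 297 and 371 and stood at 3730 in both shMETTL3-2 libraries. CTPS1, which makes CTP for RNA and DNA, went from 3526 and 3420 to 762 and 718, and MZT1, a partner of gamma-tubulin, from 692 and 863 to 101 and 91. BTBD9 and GPR1 fell by 3.15 and 3.24. In each of these 5 falls the shMETTL3-2 libraries were not called against shLuc. Rises of this kind included ASTN2 (40 and 37 to 228 and 266), RAB26 (45 and 30 to 224 and 218) and the ligand WNT7B (43 and 77 to 212 and 146), beside TP53INP1 and LATS2. The call of WNT7B was lost without shMETTL3-1 replicate 1.

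Most markers of other cell types were not analysed here, since the scores cover few of them. Summed over those listed, 4 of 22 hepatocyte markers scored 2192 to 2278 under shLuc and 1649 to 1668 under shMETTL3-1, and 5 of 12 biliary and epithelial markers 10154 to 10242 and 16097 to 16706. For 8 of 15 endothelial markers the sums were 1552 to 1601 and 3107 to 3329, for 6 of 17 leukocyte markers 1140 to 1226 and 1884 to 2120, and for 6 of 13 markers of HEK293T cells 7450 to 8349 and 5798 to 6067. LIN28B, on the last list, was listed at 0 in both shLuc and both shMETTL3-2 libraries and at 172 and 221 under shMETTL3-1. It entered the comparison through the shMETTL3-1 libraries, and no test of it is read. PTPRB and LCP1, among the largest rises, are on the endothelial and leukocyte lists, and CDH5, VE-cadherin, fell from 180 and 164 to 26 and 49. EMCN and PTPRC were each at 0 in some of these libraries and at 150 or more in others of the same group. The part of these genes in the results was not tested. Of the stellate markers, ACTA2, VIM, PDGFRB, COL1A1, COL1A2 and COL3A1 had scores in all libraries, and DES, LRAT and CYGB were not analysed here. Of 15 tested genes linked to quiescent or neural-crest-like stellate cells 6 rose and 6 fell, and NES, the intermediate filament nestin, fell from 534 and 594 to 101 and 125.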

How the data were processed

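RNA-seq libraries of LX2 cells, 2 per group, were compared as deposited. Per the labels the deposited table is of counts on hg19; which aligner and counter made it is not given in the sources used here. Because all columns follow 1 distribution (totals 16535130 to 16536605), each deposited value was treated as a score with no depth, and no count test was run, although the design allowed for one. Gene names turned into dates by a spreadsheet (19) were restored by Ensembl ID, and the second row of 12 repeated names kept its ID.

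Scores were put on a log2 scale after adding a pseudocount of 1 and fitted by limma 3.58.1 in R 4.3.3 over all 6 libraries (1 mean per group, mean-variance trend, robust moderation, 3 residual degrees of freedom). Log2 changes are on this scale and understate changes of low genes. All p-values are two-sided, with Benjamini-Hochberg adjustment across 12331 genes. On simulated data of 12154 genes, 46% of changes of 0.5 and 73% of changes of 1 on the log2 scale were recovered, with 7 false calls. The simulation changed only a small share of its genes, whereas 58.9% of the tested genes were called here. Neither its recovery nor its false calls carry over to these calls.

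Gene lists, named genes and comparisons were chosen with earlier results of these data known. Named genes are METTL3, a list of key genes, the 20 largest rises and falls, up to 3 called members per list and direction, genes at the maximum, up to 8 from or to the floor, and up to 8 of each kind of hairpin difference; further list members are named to show a list's spread. Replicate numbers are shared across groups, but same-numbered libraries deviated together by only 0.069 (correlation over genes, shLuc and shMETTL3-1), 0.132 and -0.001 for the pairs with shMETTL3-2, so they were not treated as pairs. Alternatives covered the libraries fitted, pseudocounts of 10 and 50, the score minimum, moderation, centring, the replicate block and each library left out. Promoters and motifs were read from a RefSeq table and described without a test. Some genes of these lists are not reported here.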

Additional observations from a re-analysis of the deposited data

Results flagged for a closer look

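The genes below were picked because the 2 hairpins moved them in opposite directions against the same shLuc libraries and the difference between the hairpins was itself called. Values are log2 differences, shMETTL3-2 minus shMETTL3-1, with limma's adjusted p. EDA2R, a death-domain receptor of the TNF family, differed by -4.60 (adjusted p = 7.06e-07). It scored 142 and 146 under shLuc, 490 and 480 under shMETTL3-1, and 20 and 18 under shMETTL3-2. PLAU, urokinase, differed by -4.35 (adjusted p = 2.22e-07), and TES, a focal adhesion protein, by -4.15 (adjusted p = 7.33e-07). The glycolytic enzyme PGK1 differed by -4.06 (adjusted p = 2.95e-07), with tied scores in both shLuc and in both shMETTL3-1 libraries. RRM2B, a ribonucleotide reductase subunit induced by DNA damage, differed by -3.71 (adjusted p = 8.91e-07). Its scores were 199 and 214, then 441 and 458, then 33 and 34.

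In the other direction VWA9 differed by 3.76 (adjusted p = 1.53e-06), from 572 and 664 under shLuc to 60 and 78 under shMETTL3-1 and 931 and 954 under shMETTL3-2. C1GALT1C1 differed by 3.96 (adjusted p = 3.97e-06), and SERPINB2 by 5.87 (adjusted p = 4.42e-07). Both libraries of each hairpin lay on the stated side of both controls for all 8 genes. The genes were picked by calls in those directions and by a called difference. Neither this separation nor the adjusted p-values therefore add support. No cause of these differences was tested.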

How the results depend on the processing

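Requiring a log2 change of 1 or more as well as the adjusted p lowered the calls from 3756 to 681 higher and from 3505 to 803 lower. No other alternative moved either count by more than 1.5 times, and no call of the full set changed direction in any. Leaving out each library in turn gave 2926 to 3850 genes higher and 2824 to 3596 lower, with METTL3 called each time. Centring each library on its median gave 3619 genes higher and 3623 lower. METTL3 stayed between -1.08 and -0.92 on the log2 scale. With the replicate block, which the data do not show to be a pairing, 3962 genes were higher and 3718 lower, and METTL3 lay at -1.04. Alternatives for list counts and for the hairpin difference were added after the data were seen. For the mesenchymal transcription factors, leaving out each library gave 7 to 11 higher and 3 to 6 lower. The scores keep no depth, so counting error has no value here. Of 364 called genes named by rule or in the text, 331 kept the call in every alternative run and 33 lost it in at least 1, all of them when some library was left out and 10 also under another setting; a further 6 gained a call in some alternative.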

Other observations

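Of 79 respiratory chain genes 28 were called higher, 15 lower and 36 neither, with a median log2 change of 0.14 (30.5% of all tested genes were called higher). NDUFB1, a subunit of complex I, rose by 0.97, and SDHD, which anchors complex II, fell from 852 and 854 to 367 and 428 under shMETTL3-1, against 972 and 958 under shMETTL3-2. Of 46 proteasome genes 11 were higher, 12 lower and 23 neither. PSMB6, a catalytic core subunit, was the large fall, from 1419 and 1388 to 358 and 344, against 1607 and 1546 under shMETTL3-2 (difference between hairpins 2.16, limma adjusted p = 7.03e-07).

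Of 67 RNA decay and splicing genes 19 rose and 22 fell. DCP2, the decapping enzyme, rose from 964 and 992 to 2878 and 3031, and stood at 708 and 598 under shMETTL3-2 (difference -2.18, adjusted p = 1.92e-06). The splicing regulator MBNL1 fell by 1.60 and HNRNPA1 by 2.05 on the log2 scale. Of 327 ZNF zinc finger genes 63 were higher, 84 lower and 180 neither, with a median of -0.06.

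The m6A consensus letters GGACT were counted in the transcripts of 11840 tested genes (96.0%), as a description without a test. The median was 0.961 per kilobase in genes called higher, 0.945 in genes called lower and 0.894 in genes not called. In 4 equal groups of genes from the lowest to the highest density, 28.5%, 30.8%, 31.9% and 31.7% were called higher and 27.4%, 28.6%, 29.8% and 28.2% lower. Letters in a transcript are not measured m6A.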
